A study of Homo sapiens with 6 samples.

Results

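The 10 genes described here encode the 3 sestrins (SESN1, SESN2 and SESN3) and 7 further regulators of mTORC1 that are tied to p53 or act beside it, namely DDIT4, TSC1, TSC2, RHEB, PRKAB1, PRKAB2 and RRAGD. They were picked by symbol, without a threshold on measured values but with earlier results of these data known, and all 10 were found among the 27942 genes of the count table and among the 13727 that passed the filter on low counts. The cells were HCT116, a long-established line grown from a human colorectal carcinoma. Messenger RNA was sequenced from 3 libraries of cells exposed to oxaliplatin at 0.5 µM over 24 h (OXA) and from 3 libraries of non-treated cells (NT). Oxaliplatin is a platinum drug that forms adducts on DNA. Both groups were grown in RPMI medium with bovine serum, to which the labels add antibiotics and the study's methods do not. All values come from 1 cell line, 1 dose and 1 time, and nothing says whether the libraries of a group came from separate cultures, so the p-values measure only the spread between these libraries.

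mTORC1 is a kinase complex that turns on protein synthesis and growth when amino acids and growth factors are at hand. Amino acids reach it through the Rag GTPases on the lysosome, where GATOR1 switches the Rags off, GATOR2 holds GATOR1 back and the sestrins in turn hold GATOR2 back. Growth factors reach it through RHEB, the small GTPase that activates mTORC1 and that the TSC1-TSC2 complex switches off, and both DDIT4 (also called REDD1) and the energy sensor AMPK act in favour of TSC. SESN1, SESN2, DDIT4 and PRKAB1 are known targets of p53, which links DNA damage to restraint of mTORC1, while SESN2 and DDIT4 also answer to ATF4 and SESN3 to FOXO factors.

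The libraries held between 32979521 and 40967880 counts. Libraries of the same group differed from each other by more than counting noise (chi-square per gene 19.2 to 83.1), and were all kept as replicates. All 6 epithelial markers looked up (EPCAM, CDH1, KRT8, KRT18, KRT19 and CLDN4) were present, with summed TMM-normalized counts of 79070 to 114200 in NT and 129100 to 152900 in OXA. The 6 did not move together, since 4 log2 fold changes of OXA over NT were above 0 and 2 below. They ran from -0.196 for CDH1 to 1.29 for KRT19. Of 9 markers of leukocytes, endothelium and fibroblasts, 6 were too low to be tested, LUM and DCN had no count in any library, and the list summed to 288 to 514 in NT and 411 to 494 in OXA. NT library 1 stood apart with the GC content of genes. Its median log2 deviation from the mean of its group fell from 0.157 in the decile of genes poorest in GC to -0.685 in the richest decile, and for OXA library 1 the same medians were 0.0665 and -0.259. The trend ran the other way in NT library 2 (-0.121 to 0.442), NT library 3 (-0.0364 to 0.249) and OXA library 2 (-0.116 to 0.298), and was small in OXA library 3 (0.0474 to -0.0311). These trends bear on the GC-rich members and are given beside them.

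SESN1, SESN2, DDIT4 and PRKAB1 were higher in OXA than in NT, by 2.68-fold, 2.24-fold, 2.47-fold and 1.72-fold. None of the 10 genes was lower at the same threshold, an adjusted p under 0.05 by edgeR's quasi-likelihood test. PRKAB2 and SESN3 missed the threshold and passed it, upward and downward, when the replicate number was a block in the fit. TSC1, TSC2, RHEB and RRAGD passed in neither fit. The counts are of whole cultures, in which more RNA per cell and more cells with the RNA cannot be told apart.

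These 4 calls of 10 stood against 2.78% of all tested genes called higher, and the 0 calls downward against 2.29% called lower. With the block, 5 of the 10 were higher and 1 was lower, against 12.1% and 10.9% of all genes. In 5 of the 10 genes all OXA libraries lay above all NT libraries, which held for 14.5% of all genes, and in 2 every OXA library lay below, which held for 14.4%. At an unadjusted p under 0.05, 6 of the 10 passed, against 21.7% of all genes. The median log2 fold change was 0.41 over the 10 genes and 0.023 over all genes tested.

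**Figure D1:**
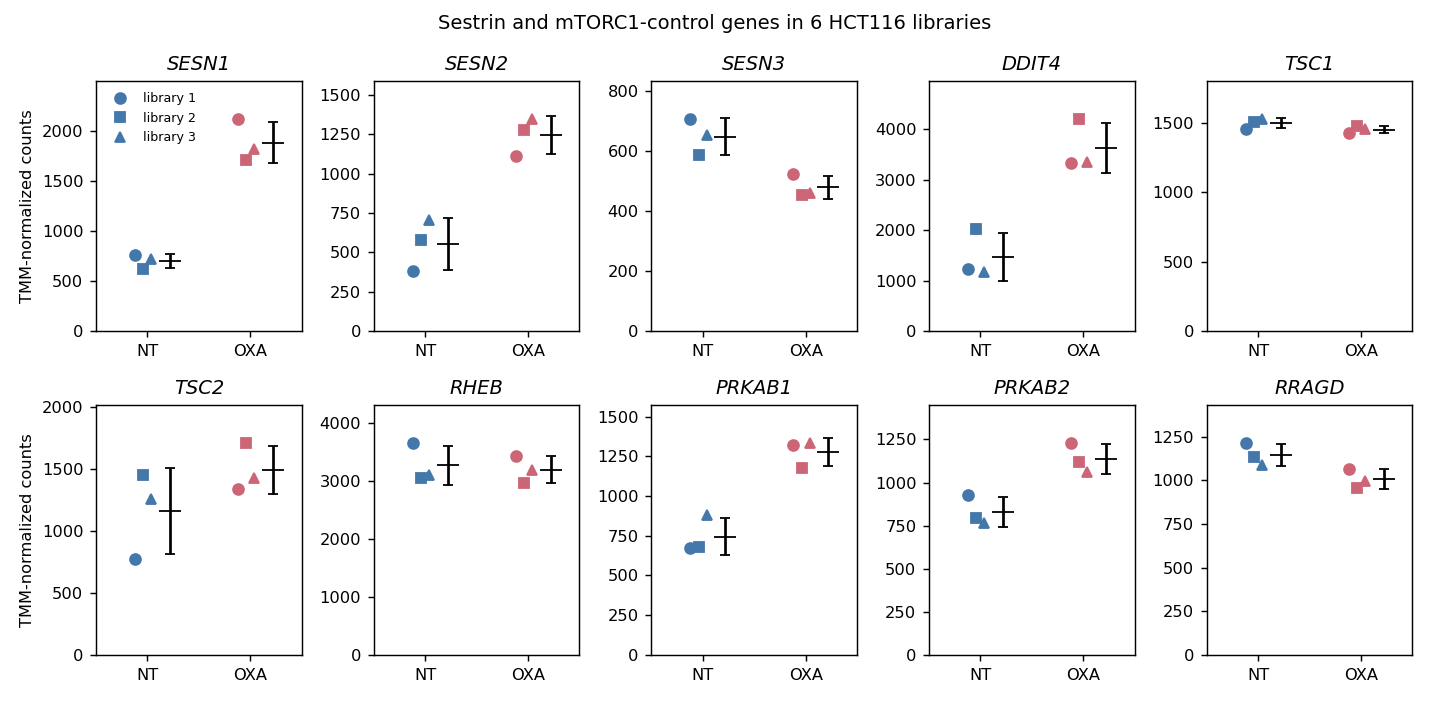
TMM-normalized counts (vertical axes, each from 0) of the 10 genes in the 3 NT (blue) and 3 OXA (red) libraries, with the library number given by the symbol and the mean ± SD of each group in black. SESN1, SESN2, DDIT4, PRKAB1 and PRKAB2 show no overlap with OXA above NT, SESN3 and RRAGD none with OXA below NT, and TSC1, TSC2 and RHEB overlap.

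SESN1 (ENSG00000080546) lies on the minus strand of chromosome 6 of GRCh38 from 108984309 to 109094846 and has 7 annotated transcripts. Its TMM-normalized counts were 764, 625 and 718 in NT libraries 1 to 3 and 2117, 1714 and 1822 in OXA libraries 1 to 3. All OXA libraries lay far above all NT libraries, and the spread within each group was small beside that gap. The means were 702 ± 70.9 in NT and 1884 ± 209 in OXA (mean ± SD, n = 3), and edgeR gave a log2 fold change of 1.42 ± 0.13 (SE, adjusted p = 0.00247). The difference between same-numbered libraries was alike in the 3 pairs, at 1.47, 1.45 and 1.34 on the log2 scale. SESN1 kept its call in each of the 6 fits lacking 1 library, with an adjusted p of at most 0.0233, and was the only one of the 10 genes to do so. Its exons share 363 bases with a lncRNA gene on the other strand that is not a row of the count table, and the strand setting of the counting is not given in the sources used here.

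RefSeq places 3 start sites in SESN1, and the innermost lies 85858 bases inside the gene. It is shown because its promoter alone, of the 12 promoters found for 9 of the 10 genes, held a pair of p53 half-sites with at most 3 mismatches. Both half-sites had to keep their core (C, A or T, A or T, G), so mismatches were allowed only in the bases beside the cores. The window runs from 250 bases before to 50 bases after the start (chr6:109008939-109009238, minus strand, GRCh38.p14, RefSeq), with the pair in capitals.
SESN1 promoter, innermost start: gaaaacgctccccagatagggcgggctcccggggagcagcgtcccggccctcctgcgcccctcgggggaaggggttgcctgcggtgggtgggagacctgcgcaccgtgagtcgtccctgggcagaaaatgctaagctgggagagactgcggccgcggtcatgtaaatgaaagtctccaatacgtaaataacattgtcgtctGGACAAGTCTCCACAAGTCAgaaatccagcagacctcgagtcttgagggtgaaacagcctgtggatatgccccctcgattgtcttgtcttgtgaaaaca
The pair, read below with the core letters of each half-site in capitals, starts at position -49 from that start site (chr6:109009018-109009037, minus strand) in intron 1 of the canonical transcript, and overlaps no annotated exon.
SESN1 pair of p53 half-sites: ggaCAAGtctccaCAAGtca
Its first half-site matches the p53 consensus and the pair as a whole has 3 mismatches to it, a limit that was set after this sequence had been seen. Pairs with both cores intact, at most 3 mismatches beside them and no spacer occur in 150 of 35116 RefSeq promoters (0.427%). A match is a description of letters, not of a bound site. The deposited counts are per gene, so they do not say from which of the 3 starts the SESN1 RNA came.

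SESN2 (ENSG00000130766), which encodes a sestrin that binds leucine, lies on the plus strand of chromosome 1 from 28259518 to 28282491 and has 1 annotated transcript. It had 381, 579 and 707 normalized counts for NT libraries 1 to 3 and 1113, 1277 and 1346 for OXA libraries 1 to 3. The groups did not overlap, but NT library 1 was far below the others of its group. The means were 556 ± 164 and 1245 ± 119.6, and edgeR gave a log2 fold change of 1.16 ± 0.22 (SE, adjusted p = 0.0264). By same-numbered libraries the log2 difference was 1.54, 1.14 and 0.93. Without NT library 1 the log2 fold change was 0.95 (by edgeR, adjusted p = 0.00348). The call was lost without NT library 2 (adjusted p = 0.0751) and without OXA library 1, 2 or 3 (0.0926, 0.107 and 0.112), at log2 fold changes between 1.08 and 1.24. The SESN2 transcript has 59.6% GC, in decile 9 of all genes, where the median gene of NT library 1 deviated by -0.453 and SESN2 by -0.496 on the log2 scale. When each library was corrected for trends on GC content and length, a setting chosen after the data had been seen, the log2 fold change was 1.04 (by edgeR, adjusted p = 0.000745). Those trends were fitted to deviations from the mean of both groups together. The correction therefore also removes any difference between OXA and NT that follows GC content or length.

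The promoter of SESN2 is shown beside that of SESN1 as the other sestrin that passed the threshold (chr1:28259268-28259567, plus strand, GRCh38.p14, RefSeq).
SESN2 promoter: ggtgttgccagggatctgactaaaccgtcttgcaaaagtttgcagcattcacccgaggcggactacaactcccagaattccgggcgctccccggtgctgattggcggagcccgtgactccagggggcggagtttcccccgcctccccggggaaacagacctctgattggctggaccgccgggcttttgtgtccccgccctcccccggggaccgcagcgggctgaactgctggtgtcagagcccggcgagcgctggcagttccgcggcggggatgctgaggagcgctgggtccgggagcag
None of the motifs searched on both strands, the p53 pair and p53 half-site, the E-box CACGTG, the ATF4 element TGATGCAA, the hypoxia core TACGTG and the FOXO element GTAAACA, is in this window. In all 35116 promoters these are found in 0.427%, 6.632%, 7.256%, 0.866%, 3.244% and 3.423%, in that order. The absence of these letters from the window says nothing on the factors.

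SESN3 (ENSG00000149212), the sestrin gene known as a FOXO target, lies on the minus strand of chromosome 11 from 95165513 to 95232541. It had 706, 586 and 653 normalized counts in the NT group and 523, 455 and 459.8 in OXA. Every OXA library lay below every NT library, the reverse of the other sestrins. The means were 649 ± 60.3 and 479 ± 37.8, a log2 fold change of -0.44 ± 0.13 SE that missed the threshold (by edgeR, adjusted p = 0.0910). The 3 same-numbered pairs differed by -0.433, -0.365 and -0.505, and with the replicate block SESN3 passed at the same log2 fold change of -0.44 (by edgeR, adjusted p = 0.0174). Without the block SESN3 missed the threshold in each of the 6 fits lacking 1 library (by edgeR, adjusted p from 0.0888 to 0.290). The transcript is in the decile of genes poorest in GC (37.1%). With the GC and length trends removed its log2 fold change was -0.33 (by edgeR, adjusted p = 0.0183).

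**Figure D2:**
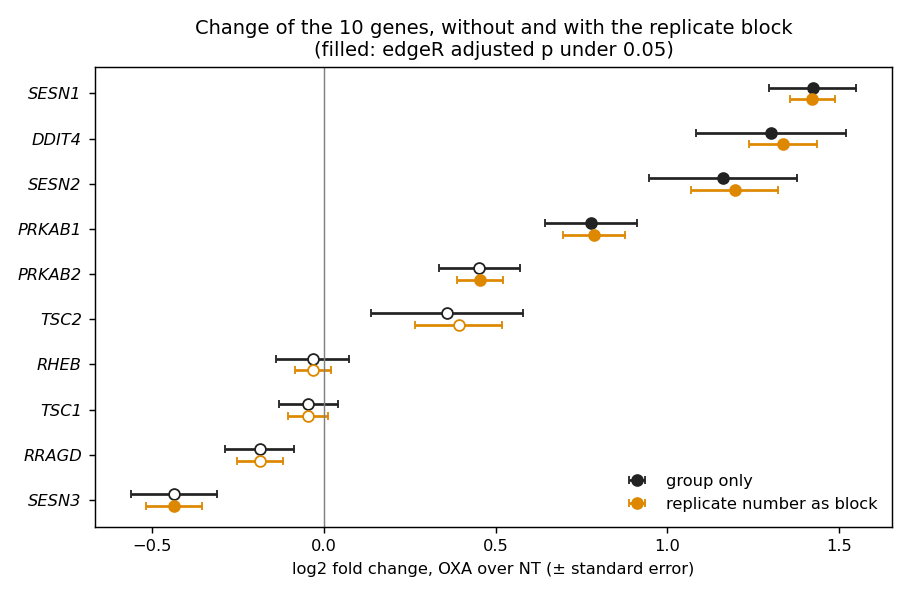
Log2 fold change of OXA over NT (horizontal axis, ± standard error) of the 10 genes, from the fit on group alone (black) and with the block of replicate numbers (orange), with filled circles for an edgeR adjusted p under 0.05. SESN1, DDIT4, SESN2 and PRKAB1 are filled in both fits, PRKAB2 and SESN3 with the block only.

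The balance among the sestrins was followed as each gene's share of their summed counts per kilobase of exons. SESN3 made up 23.7%, 17.96% and 16.9% in NT libraries 1 to 3 and 7.46%, 6.64% and 6.37% in OXA libraries 1 to 3. Its share was lower in every OXA library, at a mean of 19.5 ± 3.64% in NT and 6.82 ± 0.571% in OXA (two-sided exact permutation test p = 0.1, the smallest that 3 against 3 libraries can give). The shares come from the same counts as the fold changes, so this share falls as SESN1 (2.68-fold) and SESN2 (2.24-fold) rise. SESN3 itself was at 0.74-fold and missed the threshold. The share of SESN1 was 30.7 ± 5.66% and 39.0 ± 4.29% (exact p = 0.3), and the groups overlapped. By the length of all exons SESN2 was the largest part in every library, with 49.8 ± 9.30% and 54.2 ± 4.84% (exact p = 0.5), and this difference of 4.41 percentage points turned to -0.938 without NT library 1. With the longest transcript as the length, SESN1 was above SESN2 in NT library 1 (3.75 against 3.06 TMM-scaled CPM per kilobase) and OXA library 1 (10.4 against 8.93), and in raw counts, without a length, SESN1 was above SESN2 in all 6 libraries.

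**Figure D3:**
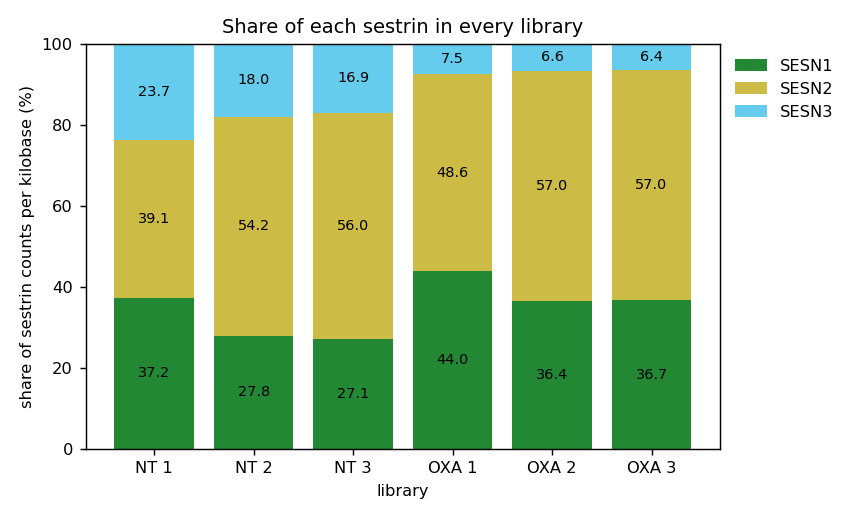
Share (%, stacked from 0 to 100) of SESN1, SESN2 and SESN3 in the sestrin counts per kilobase of exons, for each of the 6 libraries. SESN3 takes 16.9% to 23.7% in NT and 6.37% to 7.46% in OXA, and SESN2 is the largest part throughout by this length, though not by that of the longest transcript.

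DDIT4 (ENSG00000168209), whose product REDD1 acts through the TSC complex to restrain mTORC1, is a gene of 2118 bases on the plus strand of chromosome 10 from 72273919 to 72276036. It had 1228, 2018 and 1173 normalized counts in the NT group and 3336, 4202 and 3354 in OXA. The groups did not overlap, and library 2 was the highest in both. The means were 1473 ± 473 and 3630.5 ± 495, and edgeR gave a log2 fold change of 1.302 ± 0.22 (SE, adjusted p = 0.0202). With the block the standard error was 0.099 and the log2 fold change 1.34 (by edgeR, adjusted p = 0.00186). The call was lost without NT library 3 (adjusted p = 0.0796) and without OXA library 1, 2 or 3 (0.0778, 0.0879 and 0.0770), at log2 fold changes between 1.13 and 1.36. DDIT4 has 58.0% GC, in decile 8 of all genes. With the GC and length trends removed its log2 fold change was 1.15 (by edgeR, adjusted p = 0.00219).

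Of the 10 genes with 5000 bases on either side, DDIT4 alone held a full p53 consensus, meaning a pair of half-sites without mismatch or spacer. It lies 3136 bases before the gene (chr10:72270764-72270783, plus strand) and is shown, core letters in capitals, with the promoter (chr10:72273674-72273973, plus strand, GRCh38.p14, RefSeq), in which the hypoxia core TACGTG is in capitals at position -126.
DDIT4 upstream p53 consensus: aagCATGtctaggCAAGccc
DDIT4 promoter: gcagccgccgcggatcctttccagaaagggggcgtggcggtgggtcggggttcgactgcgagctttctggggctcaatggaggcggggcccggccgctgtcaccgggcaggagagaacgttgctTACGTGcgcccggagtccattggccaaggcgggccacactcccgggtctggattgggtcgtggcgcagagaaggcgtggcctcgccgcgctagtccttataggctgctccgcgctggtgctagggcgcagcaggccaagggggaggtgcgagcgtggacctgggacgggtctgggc
Such a consensus was found at 0.2% of the 1000 tested genes closest to DDIT4 in length, searched the same way, and at 157 of 13662 genes in all (1.15%). For the lengths of the 10 genes searched this share ran from 0.2% to 1.5%. The 0.2% is therefore not the rate for finding a site at any of the 10. TACGTG is in 3.244% of promoters. HIF1A and EPAS1, the hypoxia factors known for DDIT4, had log2 fold changes of 0.20 and 0.37 (by edgeR, adjusted p = 0.463 and 0.147), and both passed with the block (adjusted p = 0.0418 and 0.0130).

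PRKAB1 (ENSG00000111725) and PRKAB2 (ENSG00000131791) encode the alternative beta subunits that hold the AMPK complex together. PRKAB1, the one known as a p53 target, lies on the plus strand of chromosome 12 from 119667864 to 119681624. It had 676, 681 and 879.7 normalized counts in the NT group and 1323, 1179 and 1335 in OXA. The groups did not overlap, and NT library 3 was the highest of NT. The means were 745 ± 116 and 1279 ± 87.0, and edgeR gave a log2 fold change of 0.78 ± 0.13 (SE, adjusted p = 0.0218). By same-numbered libraries the log2 difference was 0.968, 0.79 and 0.6. The call was lost without NT library 2 (adjusted p = 0.0675) and without OXA library 1, 2 or 3 (0.114, 0.0758 and 0.101), at log2 fold changes between 0.69 and 0.83.

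The PRKAB1 promoter is shown as that of the last gene of the 4 that passed (chr12:119667883-119668182, plus strand, GRCh38.p14, RefSeq).
PRKAB1 promoter: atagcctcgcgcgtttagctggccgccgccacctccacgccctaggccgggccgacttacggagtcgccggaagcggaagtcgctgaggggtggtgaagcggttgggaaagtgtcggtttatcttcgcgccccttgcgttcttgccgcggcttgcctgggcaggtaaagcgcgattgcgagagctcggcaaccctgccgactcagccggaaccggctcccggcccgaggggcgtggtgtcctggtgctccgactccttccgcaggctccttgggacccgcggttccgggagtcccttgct
None of the 6 motifs is in it. The exons of PRKAB1 share 103 bases with a lncRNA gene on the other strand that had no count in any library.

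PRKAB2 lies on the minus strand of chromosome 1 from 147155106 to 147172550. It had 928, 797 and 766 normalized counts in the NT group and 1230.2, 1119 and 1060.3 in OXA, and every OXA library was above every NT library. The means were 830.3 ± 86.2 and 1136 ± 86.3, a log2 fold change of 0.45 ± 0.12 SE that missed the threshold (by edgeR, adjusted p = 0.0722). The same-numbered pairs differed by 0.406, 0.488 and 0.469, and with the replicate block PRKAB2 passed (log2 fold change 0.45, edgeR adjusted p = 0.00975). It also passed without NT library 1 (log2 fold change 0.54, edgeR adjusted p = 0.0175). That was the only one of the 6 fits lacking 1 library in which PRKAB2 passed (edgeR adjusted p from 0.165 to 0.267 in the others). Per kilobase of exons, PRKAB1 made up 44.7 ± 5.72% of the beta subunit counts in NT and 50.4 ± 2.43% in OXA, with overlapping groups (exact permutation test p = 0.3). With the longest transcript as the length, its mean share was 54.3% in NT and 59.9% in OXA, so the larger part in NT depends on the length used.

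TSC1 (ENSG00000165699, hamartin, minus strand of chromosome 9 from 132891348 to 132946874) had 1459.8, 1510.0 and 1528 normalized counts in the NT group and 1425, 1477 and 1456 in OXA. The groups overlapped, and the spread was the smallest of the 10 genes. The means were 1499 ± 35.2 and 1453 ± 26.4, and edgeR gave a log2 fold change of -0.045 ± 0.085 (SE, adjusted p = 0.809). Its exons share 349 bases with GFI1B on the other strand, which had at most 4 raw counts in a library.

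TSC2 (ENSG00000103197, tuberin, the subunit that acts on RHEB, plus strand of chromosome 16 from 2047967 to 2089491) had 776, 1449.7 and 1258 normalized counts in the NT group and 1334, 1707 and 1424 in OXA. The groups overlapped, since NT library 2 lay above OXA libraries 1 and 3, and NT library 1 was far below all others. By edgeR the log2 fold change came to 0.36 ± 0.22 (SE, adjusted p = 0.405), and 0.14 without NT library 1 (by edgeR, adjusted p = 0.547). With the block it was 0.39 (by edgeR, adjusted p = 0.0751). TSC2 is the member richest in GC (60.4%), and it deviated by -0.532 in NT library 1 where the median gene of its GC decile deviated by -0.453. With the GC and length trends removed TSC2 passed, at a log2 fold change of 0.24 (by edgeR, adjusted p = 0.0212). Its exons share 784 bases with PKD1 on the other strand, which had 292 ± 158 normalized counts across NT and 255 ± 87.8 across OXA.

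The first RefSeq promoter of TSC2 holds the E-box CACGTG at position -114, followed within the same letters by the ATF4 element TGATGCAA at position -110. A window of 28 bases is shown with both in capitals (chr16:2047863-2047890, plus strand, GRCh38), since none of the other promoters looked up held either motif.
TSC2 window: ggccccgtCACGTGATGCAAggatcgcc
The E-box is in 7.256% of all promoters and the ATF4 element in 0.866%.

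RHEB (ENSG00000106615, minus strand of chromosome 7 from 151466012 to 151520120) had 3649, 3052 and 3090.1 normalized counts in the NT group and 3431, 2961 and 3176 in OXA. The groups overlapped, and library 1 was the highest in both. By edgeR the log2 fold change came to -0.033 ± 0.11 (SE, adjusted p = 0.892), and its sign turned to 0.055 without NT library 1 and to 0.018 without OXA library 2.

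RRAGD (ENSG00000025039, a Rag GTPase that pairs with RRAGA or RRAGB, minus strand of chromosome 6 from 89364616 to 89412273) had 1215, 1134 and 1088 normalized counts in the NT group and 1067, 954 and 998 in OXA. Every OXA library lay below every NT library, by a narrow margin. The means were 1146 ± 64.6 and 1006 ± 56.9, and the log2 fold change of -0.19 ± 0.10 SE did not pass (by edgeR, adjusted p = 0.333, and 0.0976 with the block). RRAGC, its close relative, came to 0.14 on the log2 scale (by edgeR, adjusted p = 0.541). Per kilobase of exons, RRAGD made up 53.3%, 56.3% and 53.5% of the sum of RRAGC and RRAGD in NT and 49.98%, 49.0% and 47.2% in OXA, lower in every OXA library (two-sided exact permutation test p = 0.1, the smallest possible). By the length of the longest transcript, the mean share of RRAGD was 39.27% in NT and 34.04% in OXA. Whether RRAGC or RRAGD was the larger part in NT therefore depends on the length used.

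Levels were compared between the genes per length, as TMM-scaled CPM per kilobase of exons. In NT the order ran from RHEB (25.7 ± 2.63) and DDIT4 (19.3 ± 6.20) through RRAGD (6.25 ± 0.353), SESN2 (4.46 ± 1.32), PRKAB2 (4.23 ± 0.439), PRKAB1 (3.43 ± 0.535), SESN1 (2.68 ± 0.271), TSC1 (2.37 ± 0.0556) and SESN3 (1.70 ± 0.158) to TSC2 (1.57 ± 0.470). Ranges of neighbours overlapped for RHEB and DDIT4, SESN2 and PRKAB2, PRKAB2 and PRKAB1, SESN1 and TSC1, and SESN3 and TSC2, so these pairs did not differ beyond their spread. In OXA, DDIT4 came first at 47.6 ± 6.49, clear of RHEB at 25.1 ± 1.85. SESN2 (10.0 ± 0.960) and SESN1 (7.20 ± 0.798) followed with separate ranges, SESN1 having moved from rank 7 to rank 4. PRKAB1 (5.88 ± 0.400), PRKAB2 (5.78 ± 0.439) and RRAGD (5.49 ± 0.310) overlapped as neighbours, and TSC1 (2.29 ± 0.0415), TSC2 (2.01 ± 0.264) and SESN3 (1.26 ± 0.0994) came last, with TSC1 and TSC2 overlapping. The orders depend on the length used. With the longest transcript of each gene in place of all exons, TSC1 stood at rank 5 in NT and SESN1 at rank 9. In OXA the ranges of SESN2 (8.93 to 10.8) and SESN1 (8.41 to 10.4) then overlapped, and 4 pairs of neighbours had separate ranges in place of 6.

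The genes around these 10 were taken from lists of the mTORC1, AMPK and AKT pathways, 73 genes in all. Of the 71 that could be tested, 3 were higher (PLK2, PHLDA3 and RRAGB) and 1 was lower (FNIP2), and their median log2 fold change was 0.042. Over all tested genes 2.78% were higher and 2.29% lower. With the replicate block, 14 were higher and 6 lower, against 12.1% and 10.9% of all genes. PHLDA3, which keeps AKT from the membrane and is a known p53 target, went from 349 ± 138 to 1192 ± 242 normalized counts (edgeR log2 fold change 1.77 ± 0.31 SE, adjusted p = 0.0218). PLK2, a kinase gene and likewise a known p53 target, went from 3242 ± 285 to 7451 ± 728 (edgeR log2 fold change 1.20 ± 0.11 SE, adjusted p = 0.00247). They belong to a list of 4 p53-linked inhibitors of IGF and AKT signaling, of which IGFBP3, with a log2 fold change of 0.26, did not pass. PLK2 kept its call in each of the 6 fits lacking 1 library, while PHLDA3 kept its own without NT library 1 (log2 fold change 1.48) and lost it in the other 5 (adjusted p from 0.0519 to 0.0944).

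At the lysosome, RRAGB, a partner of RRAGC and RRAGD, went from 241 ± 21.0 to 405 ± 33.7 normalized counts (edgeR log2 fold change 0.75 ± 0.14 SE, adjusted p = 0.0273). FNIP2, a partner of folliculin, the protein that acts on RRAGC and RRAGD, went from 668 ± 27.9 to 454 ± 29.9 (edgeR log2 fold change -0.56 ± 0.11 SE, adjusted p = 0.0358). Both passed without NT library 1 and lost their calls in the other 5 fits that left out 1 library (adjusted p from 0.0740 to 0.142 for RRAGB and from 0.0652 to 0.158 for FNIP2), and with the authors' gene-specific factors as offsets (0.0648 and 0.0537). None of the 5 Ragulator genes that anchor the Rags passed, with log2 fold changes from -0.17 for LAMTOR3 to 0.53 for LAMTOR4. LAMTOR5 passed upward with the block (log2 fold change 0.23, edgeR adjusted p = 0.0352). Of the genes between the sestrins and the Rags, none passed among 3 of GATOR1 (-0.12 for DEPDC5 to 0.12 for NPRL3), 5 of GATOR2 (-0.12 for MIOS to 0.30 for WDR59), 4 of KICSTOR (up to 0.38 for KPTN) and 4 amino acid sensors (-0.32 for SLC38A9 to -0.020 for SAMTOR). With the block WDR59 passed upward (by edgeR, adjusted p = 0.0228) and SLC38A9 downward (0.0433), and of GATOR2 SEC13 passed as well (0.0498).

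Of the 5 genes of the mTORC1 core none passed, and all 5 log2 fold changes were above 0, from 0.026 for MTOR to 0.58 for AKT1S1, which encodes an inhibitory subunit (by edgeR, adjusted p = 0.0520, and 0.00883 with the block). With the block 3 of the 5 were higher, against 12.1% of all genes. Over all tested genes, 7313 of 13727 log2 fold changes were above 0. None of the 3 tested genes of mTORC2 passed in either fit, with log2 fold changes from -0.12 for RICTOR to 0.17 for PRR5. DDIT4L, the paralog of DDIT4, had a value opposite in sign to that of DDIT4, with 610.4 ± 100.5 normalized counts across NT and 397 ± 65.8 across OXA. Every OXA library lay below every NT library, and DDIT4L passed with the block only (log2 fold change -0.62, edgeR adjusted p = 0.0859, and 0.00729 with the block). RHEBL1, the relative of RHEB, had the largest negative value of that list (-0.69, edgeR adjusted p = 0.238).

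Of the 8 tested genes of the other AMPK subunits and its upstream kinases none passed, with log2 fold changes from -0.11 for CAMKK2 to 0.42 for PRKAG2 (by edgeR, adjusted p = 0.150, and 0.0245 with the block). With the block 3 of them were higher, against 12.1% of all genes. None of the 11 genes of AKT input passed, with values up to 0.48 for IRS1 (by edgeR, adjusted p = 0.116, and 0.00730 with the block). With the block 2 were higher and 1 was lower, against 12.1% and 10.9% of all genes. Of 11 genes that mTORC1 acts on none passed, from -1.001 for EIF4EBP3, a gene of 32.5 ± 21.4 normalized counts in NT, to 0.31 for RPS6KB2. With the block 2 of them passed downward, EIF4EBP2 (log2 fold change -0.32) and ULK2 (-0.48, edgeR adjusted p = 0.00982 and 0.0145), against 10.9% of all genes.

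**Figure D4:**
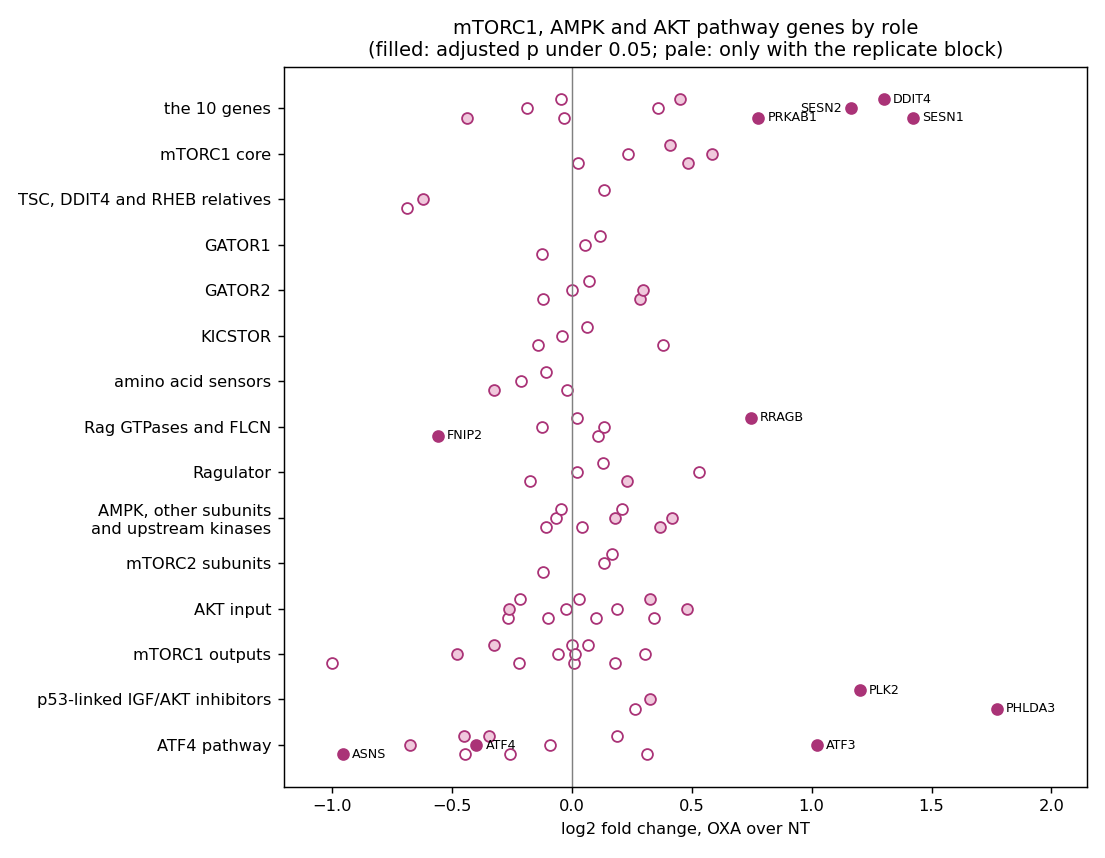
Log2 fold change of OXA over NT (horizontal axis) of every tested gene of the pathway and ATF4 lists, 1 circle a gene, grouped by role (vertical axis), filled where the edgeR adjusted p was under 0.05 and pale where it was so only with the replicate block. Filled and named are SESN1, SESN2, DDIT4 and PRKAB1 of the 10 genes, RRAGB, PLK2, PHLDA3 and ATF3 to the right, and FNIP2, ATF4 and ASNS to the left.

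Because SESN2 and DDIT4 are known targets of ATF4 as well as of p53, 12 genes of the ATF4 pathway were looked up, of which 11 could be tested. ATF3, a stress factor, was higher, from 431 ± 80.8 to 876 ± 102 normalized counts (edgeR log2 fold change 1.02 ± 0.17 SE, adjusted p = 0.0185). ATF4 itself was lower (edgeR log2 fold change -0.40 ± 0.087 SE, adjusted p = 0.0443), as was its target ASNS, the asparagine synthetase (-0.95, standard error 0.13, edgeR adjusted p = 0.00983). The median of the 11 was -0.34, against 0.023 over all genes. These 1 higher and 2 lower calls stood against 2.78% and 2.29% of all genes, and the 1 higher and 5 lower with the block against 12.1% and 10.9%. Without NT library 1 all 3 passed, ATF3 and ATF4 lost their calls in each of the other 5 fits that left out 1 library (adjusted p from 0.0560 to 0.187), and ASNS lost its call without OXA library 1 (0.0718). ATF3 and ATF4 also lost theirs with the authors' gene-specific factors as offsets (adjusted p = 0.0864 and 0.0639). SESN2 and DDIT4 had log2 fold changes of 1.16 and 1.302 in the libraries in which ATF4 and ASNS mRNA were lower. Whether ATF4, p53 or another factor acted on SESN2 and DDIT4 was not tested. Among 10 transcription factors known for these genes none passed, and 2 were higher with the block, against 12.1% of all genes. FOXO1, FOXO3 and FOXO4, known for SESN3, lay between -0.15 and 0.063.

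The genes whose log2 CPM ran most like a member over the 6 libraries were named among 12065 genes, by Pearson's r as a description. The 6 points share the contrast of OXA with NT and the differences between same-numbered libraries. For SESN1 they were MYH15, PLK2 and DUSP11 (r = 0.999 each). Their log2 fold changes of 0.68, 1.20 and 0.67 were each smaller than that of SESN1. For SESN2 they were BAX (0.999), S100A16 (0.999) and TNFSF9 (0.997), with log2 fold changes of 1.19, 0.78 and 0.79, and BAX, a death effector and known p53 target, shared with SESN2 the low value in NT library 1. For DDIT4 they were JPT1 (0.997), GOLGA7B (0.996) and BTN2A1 (0.995), none of which passed the threshold. For SESN3 they were SEMA3A (0.996), H3F3A (0.995) and SRGAP2B (0.995), with log2 fold changes of -0.45, -0.22 and -0.38, none past the threshold, and SRGAP2B has near-identical copies in the genome, so its counts are uncertain.

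Since libraries moved with GC content, the deviations of the 10 genes were set beside those of all genes of like GC content. In NT library 1, the GC-rich TSC2, SESN2 and DDIT4 deviated by -0.532, -0.496 and -0.217 on the log2 scale and the GC-poor PRKAB2, SESN3 and SESN1 by 0.165, 0.127 and 0.126. With the GC and length trends removed, the log2 fold change of SESN1 was 1.51, of PRKAB1 0.73 and of PRKAB2 0.54, and all 3 passed (by edgeR, adjusted p = 2.52e-05, 0.00225 and 0.00174). In that setting 3177 of all tested genes passed, against 696 in the fit without it. The setting removes trends within groups and also any difference between OXA and NT that follows GC content or length.

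**Figure D5:**
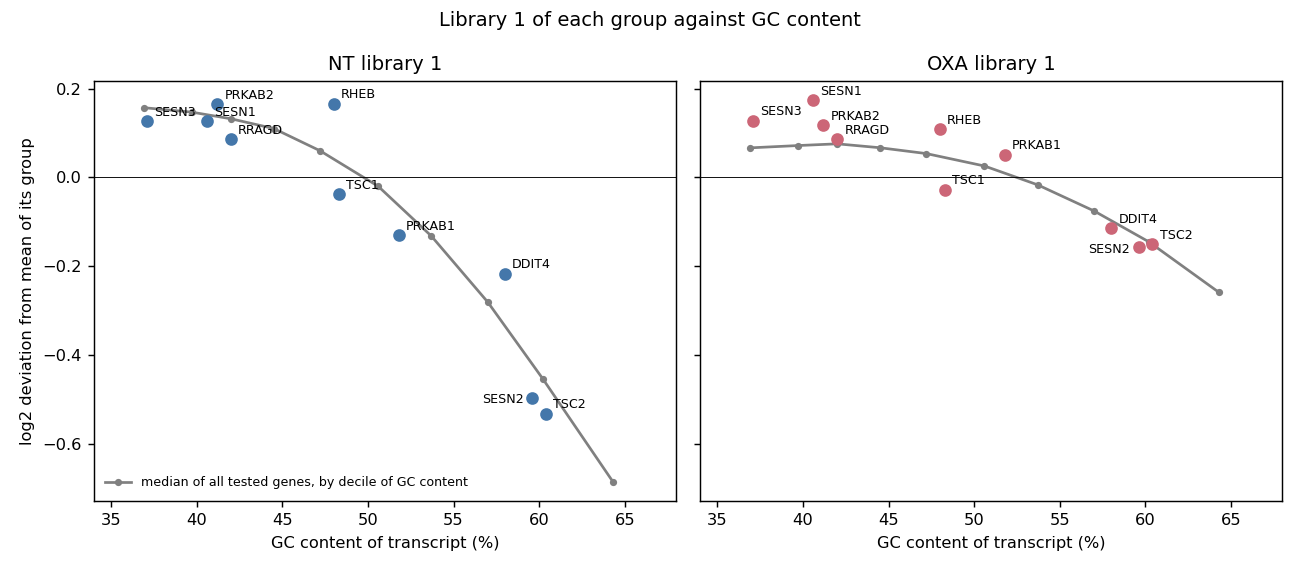
Log2 deviation of a gene from the mean of its group (vertical axis) against the GC content of its transcript in percent (horizontal axis), in NT library 1 (left) and OXA library 1 (right), with the 10 genes as named points and the median of all tested genes by decile of GC content as the grey line. The grey line falls from 0.157 to -0.685 in NT library 1 and from 0.0665 to -0.259 in OXA library 1, and TSC2 and SESN2 lie close to it in both.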

How the data were processed

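Polyadenylated RNA of HCT116 cells was sequenced in 3 NT and 3 OXA libraries, grouped by their titles. Per the study's methods the reads were mapped to GRCh38 with STAR and normalized with DESeq2. The submitters' processing notes list Trimmomatic 0.32, STAR 2.7.5b, RSEM 1.3.3 and DESeq2 2.13. Which of these counted the reads, with which annotation and strand setting, is not given in the sources used here, and whole numbers may be rounded estimates. The authors deposited a raw count and a normalized signal for each gene and library. That signal is the raw count times a factor that differs between genes and libraries, and was used only for an alternative.

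Raw counts were filtered with filterByExpr (minimum count 10, minimum total 15), scaled by TMM and tested with edgeR 4.0.16 (quasi-likelihood, R 4.3.3), with Benjamini-Hochberg adjustment over the 13727 genes tested. The standard error is the log2 fold change divided by the square root of F. Normalized counts are scaled to the mean library. Libraries within a group differed by more than counting error, so the spread between libraries sets the precision. limma 3.58.1 and DESeq2 1.42.0 served for alternatives. Gene models, lengths and GC content came from GENCODE on GRCh38 (GC known for 99.6% of genes tested) and promoters from RefSeq, GRCh38.p14, where all 10 genes but RRAGD were matched. The edgeR fits with and without the block were tried on simulated counts. Those had the same dispersion for every gene, no trend on GC content and no replicate effect. The trial therefore does not cover the trends seen in these libraries.

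Same-numbered libraries deviated together from their group means (r = 0.547, 0.542 and 0.307 over 13727 genes, against -0.467 to 0.0904 for other pairs). Because each mean is that of the same libraries, positive values for same-numbered pairs push those of other pairs down. The 2 sets of values are therefore not independent. The part of the GC trends in these correlations was not tested. The library numbers come from the titles, whose meaning (a day, a passage) is not given in the sources used here. Values from the fit with the replicate block stand where they change a call.

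The 10 genes and the lists were chosen with earlier results of these data known. Named are the 10 genes, listed genes with an adjusted p under 0.05, the largest positive and negative value of each list, genes of a list whose call changes with the block where it is spoken of, and the 3 genes most like SESN1, SESN2, SESN3 and DDIT4 among those with a mean of at least 50 normalized counts. PKD1, GFI1B, DDIT4L, RRAGC, IGFBP3, SEC13, HIF1A and the FOXO genes are named outside these rules, after their values were seen, and a few listed genes are not reported here by name. KICS2 and SAMTOR were found under older symbols. Alternatives were other scalings, filters and tests, the replicate block and fits without each library, with GC and length trends added after the data had been seen.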

Additional observations from a re-analysis of the deposited data

How the results depend on the processing

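SESN1 passed the threshold in all 16 alternatives, with log2 fold changes from 1.31 to 1.51, and SESN2, DDIT4 and PRKAB1 passed in 12 of 16 each, the others being fits that left out 1 library. TSC1, RHEB and RRAGD passed in none. RHEB changed sign in 2 fits, to 0.055 without NT library 1 and to 0.018 without OXA library 2, within a range of -0.112 to 0.055 over the libraries left out. The cause of these changes was not tested, other than that such fits have fewer samples. Left out in turn, the libraries gave 66 to 623 genes higher and 19 to 571 lower over all genes (381 and 315 with all libraries), 1 to 5 of the 10 genes higher and 0 lower, and 1 to 6 pathway genes higher and 0 to 3 lower. The replicate block gave 1664 genes higher and 1493 lower, with 1 of the 10 genes lower and 14 pathway genes higher and 6 lower, and it ended no call among the 10 genes. With the GC and length trends removed there were 1652 higher and 1525 lower, with 1 of the 10 lower and 11 pathway genes higher and 7 lower, and with the block as well 3245, 3011, 1, 22 and 15. DESeq2 called 636 genes higher and 635 lower, 5 pathway genes higher and 3 lower, and PRKAB2 (adjusted p = 0.0327). The authors' gene-specific factors as offsets gave 246 and 205. Library totals alone gave 511 genes lower, and a filter at 1 CPM in 3 libraries 479, with 2 pathway genes lower in each. Downward calls among the 10 genes were 0 in the fit on group alone, where SESN3 alone of the 4 with a negative value had an unadjusted p under 0.05, and also 0 by DESeq2 and limma-voom. Of the sestrin shares, the difference of SESN2 turned to -0.938 without NT library 1 (range over libraries left out -0.938 to 7.53), and shares of raw counts without length differed by 15.2 points for SESN1 and -20.8 for SESN3, against 8.30 and -12.7.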

Other observations

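The authors' normalized signal carries a factor for each gene and library. Relative to the median factor of its library, it lay between 0.967 and 0.975 for SESN1 in NT and between 1.00 and 1.03 in OXA. For TSC2 it was 1.59, 0.964 and 0.662 in NT libraries 1 to 3 and 0.862 to 1.02 in OXA, so its largest value was 2.41 times its smallest, at percentile 97.9 of 13658 genes. The corresponding ratio was 1.00 for SESN2, 1.01 for DDIT4 and 1.27 for RRAGD, and 1.13 for the median gene. With these factors as offsets, the log2 fold change of TSC2 was 0.28 (edgeR adjusted p = 0.472).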
